A study of Mus musculus with 18 samples.

Results

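The cells described here were the E16.5 hematopoietic progenitor (HP) cells of bone marrow (BM) that the authors' final annotation placed in a T-named cluster other than TCell1 to TCell4. The annotation held 2 such clusters, TCell5 and TCell6, with 352 of the 5312 E16.5 HP cells (6.63%, exact 95% Clopper-Pearson interval 5.97 to 7.33%) and 352 of the 2159 T-named cells of that stage (16.3%). The whole series held 56201 cells. HPs were sorted as CD45+Lineage-c-Kit+ cells from C57B6/J mice, in 2 libraries for E16.5 and 1 library for each of the stages E18.5, P0 and adult. Each library was made from several pooled animals. Cells were counted for transcripts and for barcoded antibodies in the same cells (CITE-Seq). No group carried a treatment or an introduced allele, and stromal cells, sorted as CD45-Ter119-, were sequenced at the same stages but were not used here. The clusters were given in the deposited table and their working label was that of T and NK-like cells, with Klrc1, Klrd1, Il2rb and Xcl1 as markers.

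Natural killer (NK) cells and innate lymphoid cells (ILCs) are lymphocytes that carry no rearranged antigen receptor, and their precursors, like those of T cells, arise in the fetal liver and pass through the fetal circulation. NK cells read target cells through lectin-like receptors of the Klr family and kill with perforin and granzymes, and type 2 ILCs (ILC2s) depend on the factors Gata3 and Rora and answer the alarmin IL-33. T cell precursors transcribe the CD3 chains, the pre-T cell receptor chain Ptcra and the recombinase genes Rag1 and Rag2, and the first T cells made in the fetus use gamma delta receptors.

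Members were spread unevenly over libraries. TCell5 took 13 of 560 cells of the first E16.5 library (2.32%, 1.24 to 3.94%) and 186 of 4752 cells of the second (3.91%, 3.38 to 4.51%). TCell6 took 0 of 560 cells of the first, which allows a share of up to 0.536% (3 counts of the total, the rule used for each 0), and 153 of 4752 cells of the second (3.22%, 2.74 to 3.76%). TCell1 to TCell4 showed the same imbalance, with 5 cells in the first library and 1802 in the second, so that nearly all that follows rests on the second library. No difference between clusters was tested over libraries, because the clusters were made from these same counts. The code TCell5 also named 65 of 3477 HP cells at E18.5 (1.87%, 1.45 to 2.38%) and 68 of 6208 at P0 (1.10%, 0.852 to 1.39%), and the adult annotation had 109 of 5985 cells under T/NK. TCell6 named no cell after E16.5. All intervals here and below cover counting error only.

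The first library shared cell barcodes with others, 330 of its 560 with the adult HP library and 153 with that of P0. Of its 13 TCell5 cells, 6 had a barcode that the adult library also held. These 6 cells had a median of 27105 UMIs (counted transcript molecules) in the first library, and the cells with the same barcodes elsewhere had a median of 545 UMIs and carried codes of myeloid progenitor or mast clusters. Without shared barcodes, TCell5 took 7 of 227 cells of the first library (3.08%, 1.25 to 6.25%). In the second library no member shared a barcode with another HP library. The median depth was 13504 UMIs per cell in TCell5 of the second library, 29691 in TCell6 and 22254 in TCell1 to TCell4, and the median mitochondrial share was 4.60%, 2.99% and 4.32%. No member had fewer than 3603 UMIs.

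The marker genes of the working label were found in TCell5 and not in TCell6. Klrd1, which encodes CD94 and pairs with the NKG2 chains, stood at 355 CPM (UMIs of the gene per 1000000 UMIs summed over the cells of a group) in TCell5 of the first library and at 324 CPM (303 to 346) in TCell5 of the second. No UMI of Klrd1 was counted in TCell6, and TCell1 to TCell4 had 0.311 CPM. Klrc1, which encodes the inhibitory chain NKG2A, stood at 18.1 and 27.9 CPM in TCell5 of the 2 libraries and had no UMI in TCell6 or in TCell1 to TCell4. The ratio over TCell1 to TCell4 was 1043 for Klrd1 (607 to 1966) and at least 389.5 for Klrc1, where the bound takes 3 counts in TCell1 to TCell4.

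Il2rb, the receptor chain through which NK cells receive IL-2 and IL-15, stood at 54.3 and 80.8 CPM in TCell5 of the first and second library. It had 0.219 CPM in TCell6, which was 1 UMI, and 0.191 CPM in TCell1 to TCell4, a ratio of 423 for TCell5 (211 to 991). Xcl1, a chemokine that draws cross-presenting dendritic cells, stood at 43.4 and 222 CPM in TCell5 and had no UMI in TCell6. A single UMI of Xcl1 in TCell1 to TCell4 put the ratio at 9302 with an interval of 1663 to 368017. All 4 markers were therefore absent or near absent in TCell6 and in TCell1 to TCell4, and the label of NK-like cells has no support in TCell6 from them. Both clusters are called by their codes below.

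**Figure D1:**
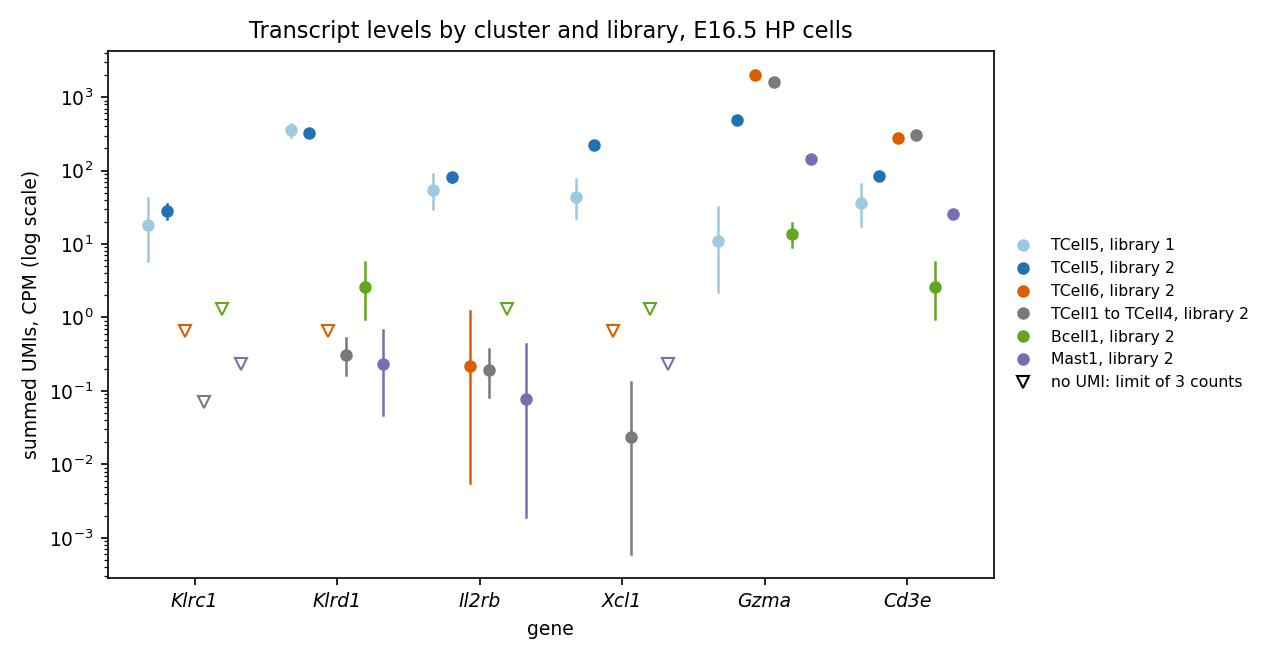
Summed UMIs as CPM on a log axis for the 4 label markers, Gzma and Cd3e in 6 cluster and library groups of E16.5 HPs, with exact 95% Poisson intervals as bars and open triangles at the level of 3 counts where no UMI was found. Klrc1, Klrd1, Il2rb and Xcl1 were high in TCell5 of both libraries, while Gzma and Cd3e were higher in TCell6 and in TCell1 to TCell4 than in TCell5.

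The markers of TCell5 were held by a minority of its cells. In the second library Klrd1 was found in 51 of 186 cells, Il2rb in 79, Xcl1 in 35 and Klrc1 in 22. Among the 13 cells of the first library, 1 cell held 54 of 98 Klrd1 UMIs, 13 of 15 Il2rb UMIs and 10 of 12 Xcl1 UMIs. By counting error alone the summed level of Xcl1 differed between the libraries. The intervals of Klrd1, Klrc1 and Il2rb in the first library held the values of the second. These intervals leave out the spread between cells, and Xcl1 was found in 3 of the 13 cells beside 35 of 186. Neither a difference nor a likeness of the libraries is therefore shown. Among the 7 cells of the first library with unshared barcodes, Klrd1 stood at 140.1 CPM (80.1 to 228) in 2 cells and Klrc1 had 1 UMI, and neither Il2rb nor Xcl1 had any.

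The genes of this family lie together. On the mm10 build of the mouse genome, with the GENCODE annotation, Klrb1b (chr6:128813706-128826331, minus strand), Klrd1 (chr6:129591782-129598775, plus strand), Klrk1 (chr6:129610323-129623864, minus strand), Klrc2 (chr6:129647496-129660689, minus strand) and Klrc1 (chr6:129666015-129678973, minus strand) fell within 865.3 kb. Klrc1 and Klrc2 are close paralogs, and reads that fit both could not be placed by the counting, so their values are less certain than that of Klrd1. Il2rb lies on chromosome 15 (chr15:78479256-78495271) and Xcl1 on chromosome 1 (chr1:164931644-164935527).

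Gene lists were then read in TCell5 of the second library beside TCell1 to TCell4 of the same library. A gene was counted as higher or lower where its CPM ratio passed 2-fold and the group with the higher CPM had at least 50 counts. Of 8711 such genes 6.93% were higher in TCell5 and 10.6% were lower. For TCell5 and TCell6 as 1 group it was 3.14% and 8.01% of 10047 genes, and among genes with at least 100 CPM the highest ratios were those of Klrd1, Rora, Ccl5, Icos and Id3. The clusters were made from these same counts, so the ratios describe the clusters and test nothing. A gene that reached 50 counts only where it was high had to differ, and the counts below are read with that in mind. A listed gene without enough counts was called neither higher nor lower, and medians cover only genes with enough counts.

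Of 23 NK receptor and adaptor genes in the matrix, 12 reached 50 counts, and these 12 were higher in TCell5. Klrk1, the activating receptor NKG2D, stood at 52.9 CPM against 0.0478, and at 3.62 CPM in the 13 cells of the first library. The adaptors Tyrobp (DAP12) and Fcer1g, which many myeloid cells also use, were 4.42-fold and 3.06-fold higher. They had 94.7 and 128 CPM in TCell1 to TCell4 and 1631 and 2754 CPM in the mast cell cluster Mast1, so they set TCell5 apart far less than the receptors did.

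Genes of mature NK cells were scarce. Ncr1 (NKp46) had 11.9 CPM, Eomes 3.72 CPM and Tbx21 (T-bet) 7.45 CPM in TCell5 of the second library, and the pore-forming gene Prf1 had 3.72 CPM. Of the cytotoxic genes, Ctsw was 31-fold higher than in TCell1 to TCell4 (27 to 35.7) and Gzmb 3.42-fold, while Gzma was lower. Gzma (granzyme A) stood at 486 CPM in TCell5 of the second library, at 10.9 CPM in the first (3 UMIs), at 1979.8 CPM in TCell6 and at 1587 CPM in TCell1 to TCell4. Bcell1 and Mast1 had 13.6 and 145 CPM. In TCell5 of the second library the top 5 cells held 63.9% of the Gzma UMIs, against 13.2% in TCell6, so its level in TCell5 rested on few cells.

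ILC2 genes were as marked in TCell5 as NK receptors. Of 9 listed genes in the matrix, 7 were higher and none lower. Rora stood at 326 CPM in TCell5 of the second library and at 582 in the first, against 1.97 CPM in TCell6 and 1.77 CPM in TCell1 to TCell4, a ratio of 184 (145 to 237). Arg1, an arginase that ILC2s and their precursors hold, had 237 and 506 CPM in the second and first library and was 584-fold higher (362 to 1009). The costimulator Icos was 109.8-fold higher (92.4 to 131), at 391 and 318 CPM. The ILC2 cytokine Il13 had 74.8 CPM in the second library and 7.24 CPM in the first, where it was 2 UMIs.

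Il1rl1, the IL-33 receptor, was 8.5-fold higher in TCell5 (7.25 to 9.95), at 91.6 CPM in the second library and 213 in the first. Mast cells also carry this receptor, and Mast1 had 544 CPM. Gata3, which both T cells and ILC2s need, was 3.79-fold higher, and Il17rb at 42.5 against 26.7 CPM did not pass 2-fold. Among the 7 cells of the first library with unshared barcodes, Arg1 stood at 578 CPM in 6 cells, Icos at 306 CPM in 6 and Rora at 385 CPM in all 7. Arg1 and Icos thus stood near their level over all 13 cells and Rora below its 582 CPM, while Il2rb and Xcl1 were not found.

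Other lymphoid regulators went with them. Of 10 listed NK and ILC transcription factors in the matrix, 6 were higher and none lower, among them Id2, which blocks the E proteins and is needed by all ILCs. Id2 stood at 651 and 1020.2 CPM in TCell5 of the second and first library and at 55.5 CPM in TCell1 to TCell4, an 11.7-fold ratio. Zbtb16 (PLZF), a factor of ILC precursors and innate-like T cells, was 6.00-fold higher. The lymphotoxin genes Ltb and Lta were 8.02-fold and 24.2-fold higher, and the IL-7 receptor gene Il7r 2.65-fold.

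Homing genes followed the same pattern. Of 25 listed genes 18 had enough counts, of which 13 were higher and 2 lower. Cxcr6, the receptor for CXCL16, stood at 151 and 188 CPM in TCell5 of the second and first library against 0.382 CPM in TCell1 to TCell4. The gut-homing receptor Ccr9 was 40.6-fold higher and the integrin genes Itgb7 and Itgae 8.44-fold and 24.6-fold. Among genes with at least 100 CPM, the 10 highest ratios included the chemokine Ccl5 at 136-fold, S100a4 at 79.1-fold, Lgals3 (galectin-3) at 70.7-fold and Calca, the gene of the neuropeptide CGRP, at 68.3-fold.

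T cell precursor genes were low in TCell5. Of 9 pre-T and recombination genes, 7 were lower and none higher. Ptcra stood at 4.47 CPM in TCell5 of the second library and 3.62 CPM in the first, against 213 CPM in TCell6 and 268 CPM in TCell1 to TCell4, a ratio of 0.0167. Rag1 had 2.23 CPM against 164, and the first library had none. Notch1, whose signal starts the T cell fate, stood at 10.8 CPM against 240.1, although the 13 cells of the first library had 57.9 CPM.

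CD3 transcripts were lower but not lost. Cd3e stood at 84.2 CPM in TCell5 of the second library and 36.2 in the first, against 308 CPM in TCell1 to TCell4, 2.63 CPM in the B cell cluster Bcell1 and 25.8 CPM in Mast1. Cd3d and Cd3g were at 0.44 and 0.41 of their level in TCell1 to TCell4. Of the 20 genes of the CD3 and T cell receptor list 15 had enough counts. Of these 6 were lower and 4 higher, the latter including Zap70, Cd28 and Cd2. Of 16 gamma delta genes in the matrix 10 had enough counts. Of these 3 were higher and 4 lower, with a median of -0.62 on the log2 scale beside -0.16 for all genes. Tcrg-C2 and Tcrg-C1 were lower, at 0.0981 and 0.462 of their level in TCell1 to TCell4. Trdc, the delta constant region, was at 268 against 184 CPM and did not pass 2-fold, while Tcrg-C4 was 5.48-fold higher and Cd163l1 (SCART1), a receptor of gamma delta T cells, 10.1-fold. Most Trdc UMIs lay in 27 TCell5 cells (sub-cluster D below), and the other TCell5 cells of both libraries had 49.1 CPM. The counting does not tell a rearranged receptor transcript from a germline one.

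**Figure D2:**
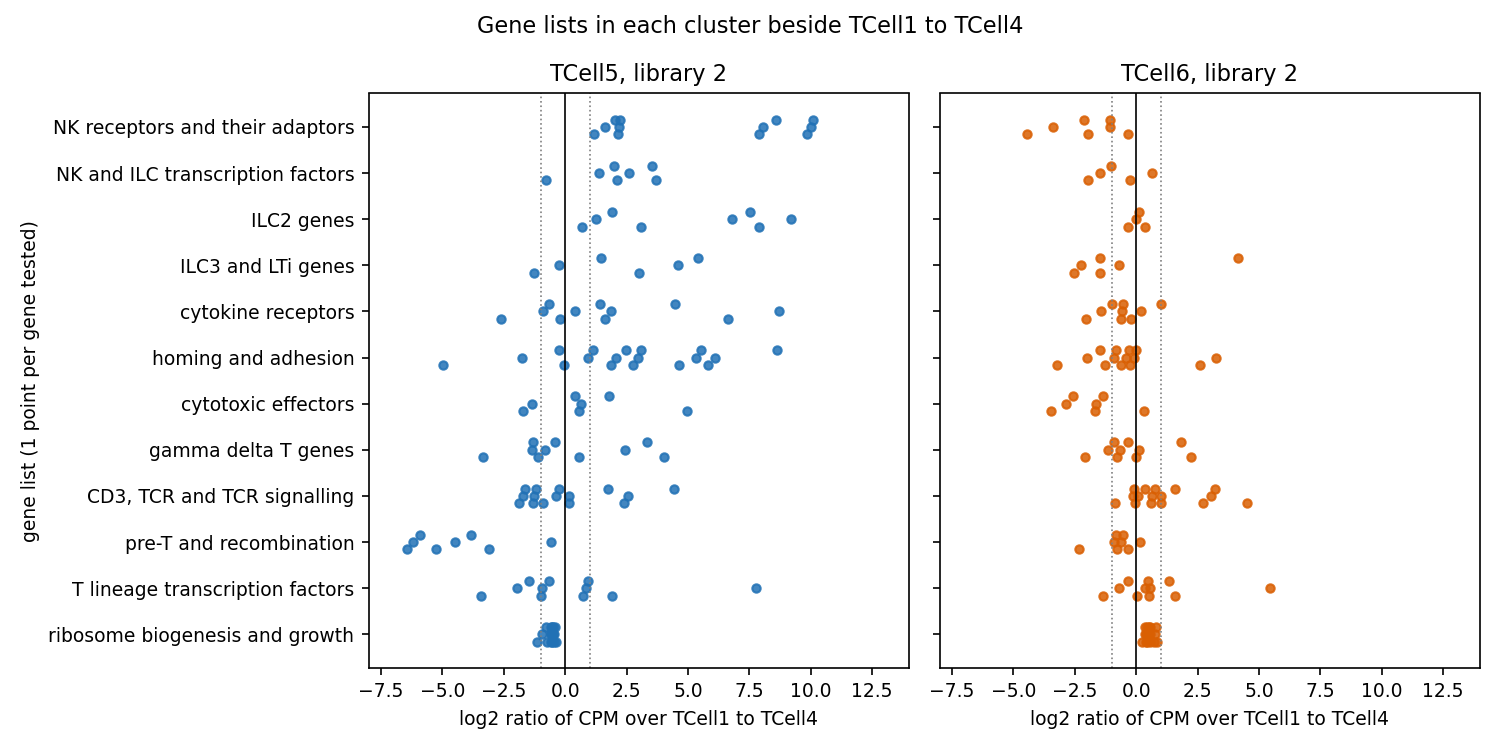
Log2 ratio of CPM over TCell1 to TCell4 in the second library for each listed gene with at least 50 counts in the higher group, with TCell5 on the left, TCell6 on the right and dotted lines at 2-fold. A gene with no UMI in a group is drawn at the bound given by 3 counts. All 12 NK receptor and 7 of 8 ILC2 genes drawn lay past 2-fold to the right in TCell5 and none did in TCell6, and 7 of 8 pre-T genes lay past 2-fold to the left in TCell5 and 1 in TCell6.

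Growth and cell cycle genes differed less. None of 16 ribosome biogenesis and growth genes was higher in TCell5 and 1, Myc, was lower, with a list median of -0.57 on the log2 scale beside -0.16 for all genes compared. None of 16 cell cycle genes passed 2-fold. By the authors' phase calls 22.6% of TCell5 cells of the second library were in G1, 45.2% in S and 32.3% in G2M, against 3.27%, 59.3% and 37.4% in TCell1 to TCell4. The phase calls are those of the deposited table and were made at different depths.

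TCell6 differed from TCell1 to TCell4 mostly by lower genes. Of 9963 genes compared in the second library 0.913% were higher in TCell6 and 15.1% lower, and the TCell1 to TCell4 cells are those used for TCell5. Id3, an E protein inhibitor induced by receptor signals, stood at 100.2 CPM against 3.42 CPM, a 29.3-fold ratio (24.2 to 35.6). Ighm, the mu heavy chain gene, was 24.8-fold higher at 148 against 5.95 CPM, and had 973 CPM in Bcell1, while the B cell marker list summed to 12.5 CPM in TCell6 and 59.3 CPM in TCell1 to TCell4. Neither Id3 nor Ighm was particular to TCell6. Over TCell5 and TCell6 as 1 group they stood at 105 and 118 CPM. Within TCell5, Id3 had 530 CPM in sub-cluster D (described below), and Ighm had 135 CPM in D and 234 CPM in F.

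The CD3 and T cell receptor list had 16 of 20 genes with enough counts. Of these 7 were higher and none lower, with a median of 0.70 beside -0.19 for all genes. Cd2, an adhesion receptor of T cells, stood at 62.1 CPM against 2.7, Cd28 at 55.1 against 6.62, and Zap70, the kinase of the T cell receptor, at 55.1 against 8.39. Thy1 was 2.01-fold higher at 422 CPM. Trac, the alpha constant region, had 9.62 CPM against 0.191, and Cd8b1 12.5 CPM against 1.34, both low levels. Cd3d was at 1.69-fold, Cd3g at 0.557-fold and Cd3e at 281 against 308 CPM, so the CD3 chains did not move together.

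Of 11 T lineage transcription factors, 3 were higher, 1 (Runx3) was lower and the list median was 0.50. Lef1 was 2.97-fold (2.82 to 3.13) and Satb1 2.52-fold higher. Sh2d1a, the SLAM adaptor SAP, was 4.49-fold higher. Of the 16 gamma delta genes 10 had enough counts. Of these Cd163l1 and Tcrg-C4 were 4.68-fold and 3.58-fold higher and 2 were lower, with a list median of -0.50. Trdc was nearly level, at 197 against 184 CPM, and Tcrg-C1 and Tcrg-C2 were at 0.539 and 0.625.

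Pre-T genes mostly stayed within 2-fold of TCell1 to TCell4. Ptcra was at 0.794 of its level there and Rag1 at 0.572, and of the 9 listed genes only Il2ra (CD25), which marks an early step of T cell development, passed 2-fold, at 82.9 against 417 CPM. Of 23 NK receptors and adaptors 7 had enough counts, of which none was higher and 6 were lower, with Fcer1g at 0.255 and Tyrobp at 0.226. Nkg7 and Id2 were lower too, at 55.8 against 329.5 CPM and 26.9 against 55.5 CPM.

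Among genes with at least 100 CPM Hbb-bt, an adult beta globin gene, had the lowest ratio in both clusters, at 0.875 CPM in TCell6 and 1.12 CPM in TCell5 against 153 CPM in TCell1 to TCell4. Bcell1 and Mast1 had 0.438 and 1.85 CPM, so it was TCell1 to TCell4 that stood apart for this gene. The other 4 lowest genes in TCell6 included the interferon-induced Ifitm1 and Ifitm3, at 15.1 against 1071 CPM and 28.4 against 401 CPM. Ctla2a and Nrgn were at 0.069 and 0.0969 of their level in TCell1 to TCell4. None of the 16 ribosome biogenesis genes passed 2-fold, but their median was 0.50 beside -0.19 for all genes, with Npm1 at 6599 against 4406 CPM. In the phase calls 0 of 153 TCell6 cells were in G1, which allows a share of up to 1.96%, 38.6% were in S and 61.4% in G2M. The lack of G1 cells was not particular to TCell6. In the second library 0 of 296 TCell4 cells, 3 of 481 TCell3 cells and 7 of 486 TCell2 cells were in G1, beside 49 of 539 TCell1 cells.

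Set against TCell6 directly, TCell5 had 14% of 6691 genes higher and 6.83% lower. All 12 NK receptor and adaptor genes with enough counts and 8 of 9 ILC2 genes were higher in TCell5, and 11 of 16 ribosome biogenesis genes were lower. The 2 clusters thus shared a T-named code and little of their listed genes. When all E16.5 HP cells were clustered anew, 1 of 21 clusters, with 193 cells, held 192 TCell5 cells. Another, with 202 cells, held 138 TCell6 cells (68.3% of its cells), and the other TCell6 cells lay in clusters with few members. The counts are those that made TCell5 and TCell6, so this is no independent check.

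The question whether NK, CD3 and ILC2 transcripts lay in the same cells was addressed by comparing cells after thinning each to 1000 UMIs. In TCell5 of the second library 43 of 186 cells had a UMI of any of 16 NK receptor genes (23.1%, 17.3 to 29.8%), as had 2 of 13 cells in the first library. In TCell6 it was 0 of 153 cells, which allows up to 1.96% of cells with a UMI at this depth, in TCell1 to TCell4 8 of 1802, in Bcell1 1 of 181 and in Mast1 2 of 869. Bcell1 and Mast1 had median depths of 10854 and 13591 UMIs before thinning, and stand for the level that free RNA gives in cells that should lack the gene.

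A CD3 gene was found in 115 of 186 TCell5 cells (61.8%, 54.4 to 68.8%), in 8 of 13 in the first library, in 137 of 153 TCell6 cells (89.5%) and in 7.36% of Mast1 cells. Both kinds were found in 29 of 186 TCell5 cells (15.6%, 10.7 to 21.6%), and 14 cells had an NK receptor without CD3. At full depth CD3 transcripts were found in 99.1% of the 352 members, and this share goes with depth. Thus 29 of the 43 cells with an NK receptor UMI held CD3, beside 61.8% of all TCell5 cells, at a depth where absence of CD3 in a cell is not shown.

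A UMI of Il1rl1, Icos, Arg1 or Il13 was found in 82 of 186 TCell5 cells (44.1%, 36.8 to 51.5%) and 7 of 13 in the first library, against 4 of 153 TCell6 cells and 17 of 1802 cells of TCell1 to TCell4. Mast1 had 41.8% for this set, which holds Il1rl1, a gene that mast cells also carry, and Bcell1 had 1 of 181. The share of Mast1 was not split by gene. The NK receptor and the ILC2 set met in 6 of 186 TCell5 cells (3.23%, 1.19 to 6.89%). At 2000 UMIs per cell they met in 13 of 186 cells, of which 48 had an NK receptor UMI and 110 a UMI of the ILC2 set, so the overlap depended on depth. The cluster UD1, not T-named, had NK receptor transcripts in 29 of 76 cells, the ILC2 set in 22, both in 6 and CD3 in 3.

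**Figure D3:**
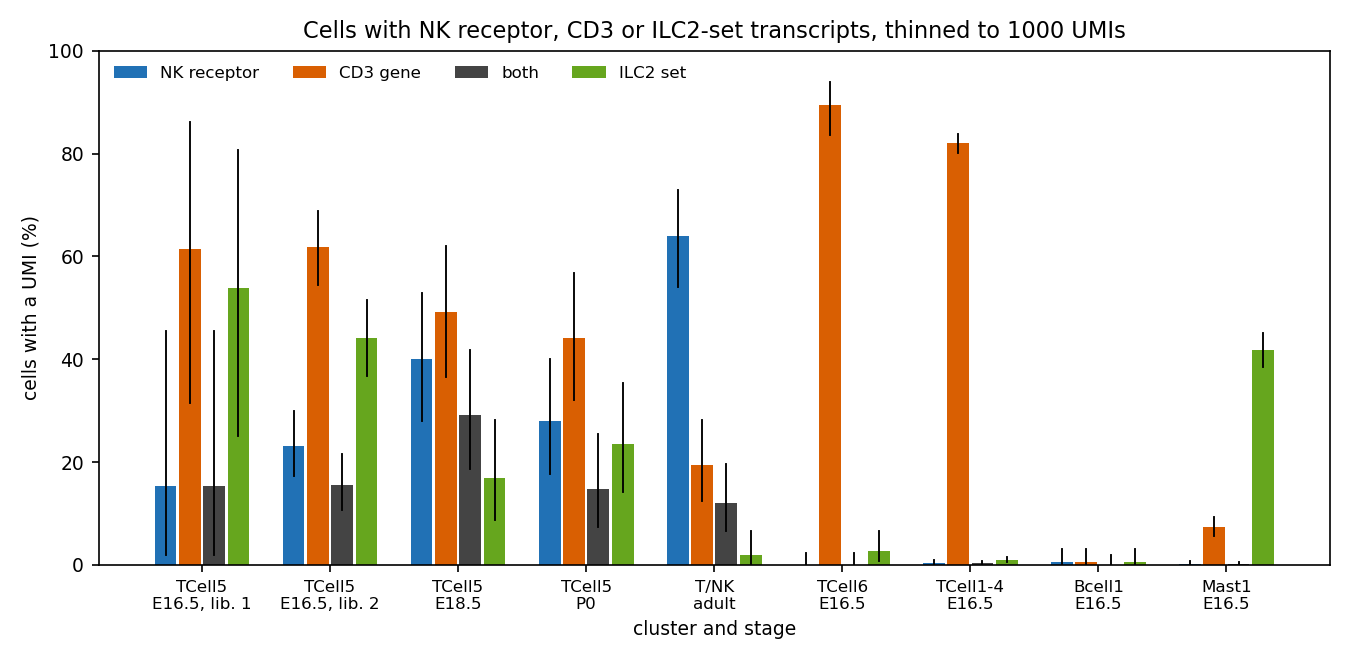
Share of cells with a UMI of an NK receptor gene, of a CD3 gene, of both and of the ILC2 set (Il1rl1, Icos, Arg1, Il13) after thinning to 1000 UMIs per cell, by cluster and stage, with exact 95% Clopper-Pearson intervals as lines. NK receptor transcripts were found in 23.1% of TCell5 cells at E16.5 in the second library and in none of the TCell6 cells.

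TCell5 was then clustered by itself. This was done after its values had been seen, and the 7 sub-clusters (A to G) are a description with no test. Sub-cluster F, with 24 cells of which 1 came from the first library, had the highest level of all 4 label markers and of 6 of 7 NK markers, and was the only sub-cluster called NK-like. Klrd1 stood at 1907 CPM in F and was found in 24 of its 24 cells, Klrc1 at 189.5 CPM in 16, Xcl1 at 906 CPM in 17 and Il2rb at 267 CPM in 20. F held 61.4% of the Klrd1 UMIs of TCell5, 73.8% of those of Klrc1 and 71% of those of Gzma. Of the Il2rb UMIs F held 35.8% and sub-cluster D 36.6%. Gzma stood at 2980 CPM in F and was found in 17 of its cells, 1 of which held 404 of 928 UMIs. The Cd3g level of F, at 2087 CPM, was the highest of all sub-clusters, and its Arg1 level of 16.1 CPM was among the lowest.

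Sub-clusters A and B, with 47 and 37 cells, held most Arg1, Il1rl1 and Il13 UMIs, while Rora was highest in E and Icos was as high in C. Arg1 stood at 618 CPM in A, in 44 of its 47 cells, and at 304 CPM in B. Il1rl1 stood at 275 and 163 CPM and Il13 at 120.1 and 152 CPM. Neither Klrd1 nor Klrc1 nor Xcl1 had a UMI in A. Of the CD3 genes, Cd3e and Cd3d had 13.6 and 5.81 CPM in A, but Cd3g had 767 CPM. B differed from A in the cell cycle, with 94.6% of its cells called G2M against 12.8% in A, and led with Cenpf and Ube2c.

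Sub-cluster C, with 33 cells, had Fabp5, a fatty acid binding protein, at 1529 CPM and Lgals3 at 1122 CPM among its leading genes, after Cxcl10, Igtp and Myo6, and had the highest Tcrg-C4 level at 373 CPM beside Icos at 622 CPM. Cxcl10 was found in 3 of its 33 cells. Sub-cluster D, with 27 cells of the second library alone, held 84% of the Trdc UMIs of TCell5. Trdc stood at 1112 CPM in D, in 25 of 27 cells, Id3 at 530 CPM in 23 cells and Cd3e at 223 CPM in 24. D also had Xcl1 at 512 CPM in 17 cells, so that D and F together held nearly all Xcl1 UMIs (46.8% and 46.3%). In D 2 cells held the macrophage and antigen presentation transcripts C1qa, C1qb, H2-Aa and H2-Eb1, which stood among its leading genes, and D was left unnamed.

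Sub-cluster E, with 26 cells, had the highest Rora at 704 CPM, Id2 at 1410 CPM and Il7r at 388 CPM, and held 55% of the Ccl5 UMIs. Cd3e had 2 UMIs in E, Arg1 201 CPM, and Xcl1, Klrc1 and Il13 none. The other CD3 genes Cd3d and Cd3g stood at 77.6 and 807 CPM in E. The T cell receptor beta constant genes Trbc1 and Trbc2 stood at 1686 and 1040 CPM in E and at 533 and 759 CPM in A. Sub-cluster G, with 5 cells, had Cma1 (chymase) at 28545 CPM and the highest level of all 7 mast cell markers. It held 93.2% of the Cma1 UMIs of TCell5, and the part of doublets in it was not tested, since the doublet caller marked 1 of 560 and 7 of 4752 cells, too few to serve as a check, and none of G. Klrd1 was not confined to F, with 91.8 to 290.1 CPM in B to E, but the highest levels of the label markers and of the ILC2 genes Il1rl1 and Il13 lay in different sub-clusters of the 6 larger ones, F on one side and A and B on the other.

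**Figure D4:**
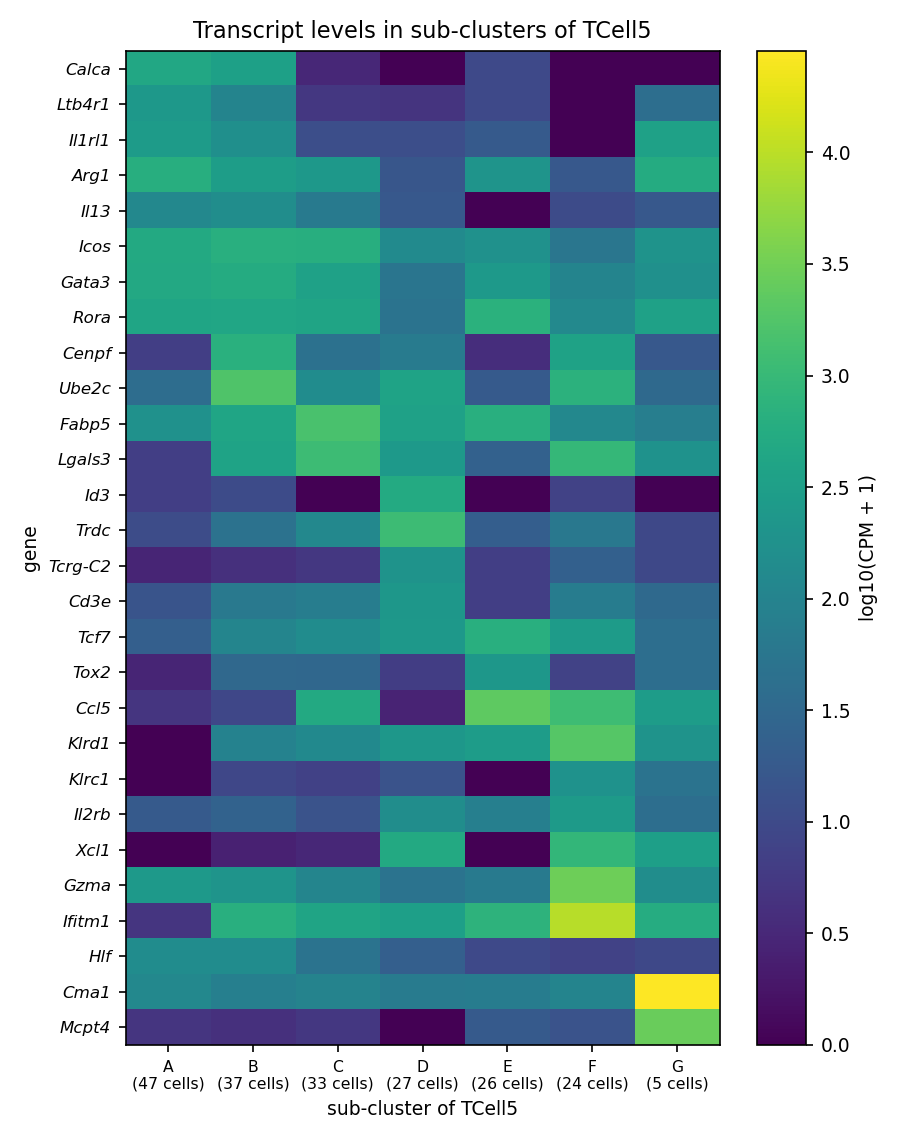
Transcript level as log10(CPM + 1), coded by colour, of the genes named in the rows in the 7 sub-clusters of TCell5 (columns), over both E16.5 libraries. Calca, Il1rl1 and Arg1 were high in A and B, Trdc and Id3 in D, Ccl5 in E, the NK receptors in F and Cma1 and Mcpt4 in G, where 1 cell held 342 of 344 Mcpt4 UMIs.

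Mast cell transcripts were present in all groups of the second library. The 7 mast markers summed to 2891 CPM in TCell5, 1093 CPM in TCell6, 1804 CPM in TCell1 to TCell4, 1978 CPM in Bcell1 and 89523 CPM in Mast1 of that library, and to 141 CPM in TCell5 of the first. In TCell6 5 cells held 86.2% of the Cma1 UMIs. Without sub-cluster G, Cma1 in TCell5 of the second library went from 1405 to 94.9 CPM and Il1rl1 from 91.6 to 79.2 CPM. Kit, the gene of the sorted antigen, stood at 94.2 CPM in TCell5, 10.9 CPM in TCell6 and 40.5 CPM in TCell1 to TCell4. The part of mast cell RNA in these values was not tested. The 6 macrophage markers summed to 79.3 CPM in TCell5, 11.4 CPM in TCell6 and 48 CPM in TCell1 to TCell4.

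The authors' clusters were made from transcripts, so antibody counts are a second readout of the same cells. In the second library, which had 16 antibodies, CD90.2 (Thy-1) had a median of 40 counts in TCell5 (quartiles 14 and 77.8), 184 in TCell6 (155 and 220), 74 in TCell1 to TCell4 (27 and 113) and 1 each in Bcell1 and Mast1. With the centered log-ratio (CLR) above 1 called positive, 127 of 186 TCell5 cells (68.3%, 61.1 to 74.9%) and 151 of 153 TCell6 cells (98.7%, 95.4 to 99.8%) were positive for CD90.2. The order of the protein followed that of the transcript, at 160.1 CPM in TCell5, 209.5 CPM in TCell1 to TCell4 and 422 CPM in TCell6. Within TCell5 the median went from 4 counts in sub-cluster E, where 7 of 23 cells were positive, to 88 in C and 89 in the 5 cells of G.

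CD43, a sialoglycoprotein of leukocytes, had a median of 15 counts in TCell5 and 26 in TCell6, beside 28 in TCell1 to TCell4 and 15 in Mast1. CD27, a costimulator of T and NK cells, was positive in 26.3% of TCell5 (20.2 to 33.3%) and 49% of TCell6 cells. The antibody to the IL-33 receptor (IL33R) was positive in 26 of 186 TCell5 cells (14%, 9.34 to 19.8%), 10 of 153 TCell6 cells (6.54%) and 58 of 1802 cells of TCell1 to TCell4 (3.22%). In Mast1 33% were positive and in Bcell1 2.21%. In sub-cluster A it was 9 of 44 cells and in F 1 of 23. The 5 cells of sub-cluster G were all positive for IL33R, for CD16/32, which marked 97.2% of Mast1 cells, and for CD90.2. CD127, the IL-7 receptor protein, was positive in 1.61% of TCell5 and 1.66% of Bcell1 cells, while Il7r transcripts stood at 240.2 CPM in TCell5. Its median was 0 counts in each of sub-clusters A to F, so absence of the protein is not shown.

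**Figure D5:**
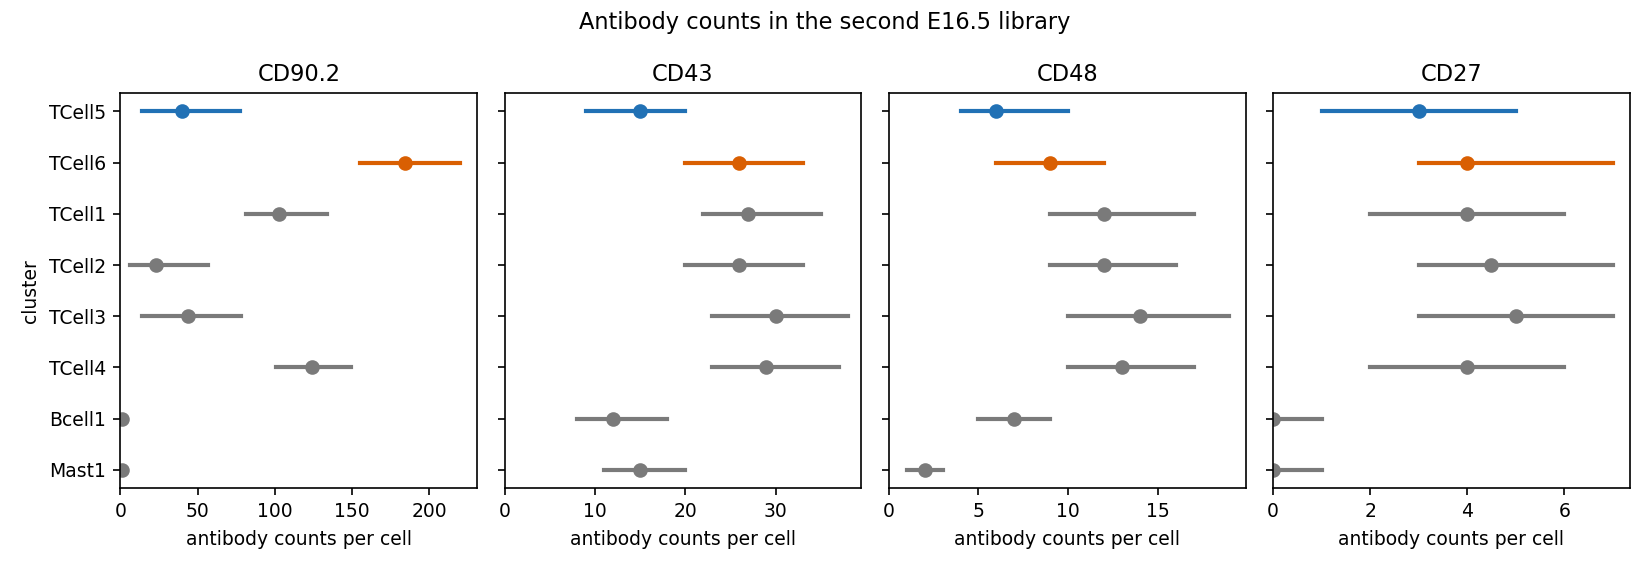
Antibody counts per cell for CD90.2, CD43, CD48 and CD27 in the second E16.5 library, with the median as a point and the quartiles as a line, for TCell5, TCell6, the 4 clusters TCell1 to TCell4, Bcell1 and Mast1. The TCell6 median of 184 counts for CD90.2 lay above that of every other cluster drawn.

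Some members met the antibody gates that the study used for stem and progenitor cells. With a CLR of 1 as the level, chosen here, 5 of 352 members (1.42%, 0.463 to 3.28%) fell in the gate of immunophenotypic long-term stem cells (phLT-HSCs, Sca-1+CD135-CD150+CD48-). The gate of phMPP2s, which are CD48+ and otherwise alike, held 4 (1.14%, 0.310 to 2.88%). At a CLR of 0.75 the phMPP2 gate held 20 members (5.68%) and at 1.5 none, so its count rests on the level chosen. Of all 5312 E16.5 HP cells 38 (0.715%) and 74 (1.39%) fell in the 2 gates at a CLR of 1, and the members' intervals hold both shares. The 5 phLT-HSCs were 3 TCell6 cells and 1 TCell5 cell from each library, and TCell1 to TCell4 gave 18 of the others.

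Cells under the code TCell5 at E18.5 and P0, and the adult T/NK cells, were set beside TCell5 of the second E16.5 library, with 1 library a stage and therefore no test. The 3 comparisons share the E16.5 cells. Of 4905 genes compared with E18.5, 5.99% were higher at E16.5 and 4.16% lower. Compared with P0 it was 5.49% and 3.42% of 4357 genes, and compared with the adult T/NK cells 32.9% and 4.26% of 4512. The median log2 ratio of all genes was 0.23, 0.24 and 0.68.

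The label markers were kept in the later clusters. In stage order Klrd1 had levels of 324, 433, 180.2 and 426 CPM, and thus took no steady course, and Xcl1 had levels of 222, 308, 279.8 and 194 CPM. Il2rb had a lower level at E16.5, at 80.8 CPM against 227, 152 and 322 CPM, and Klrc1 likewise, at 27.9 against 54.5, 47.1 and 74 CPM. Klrc1 did not meet the rule for a lower gene at any stage, and Il2rb did not meet it against P0. The Il2rb ratio was 0.356 (0.296 to 0.429) for E18.5, 0.532 (0.422 to 0.673) for P0 and 0.251 (0.204 to 0.31) for the adult, with intervals that hold counting error alone.

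Some effector and receptor genes of NK cells were lower at E16.5. Of 12 cytotoxic genes 2 were lower than at E18.5 and none higher, 2 lower than at P0 and 1 (Tnfsf10) higher, and 2 lower than in the adult and none higher. Gzma stood at 486 CPM against 2514, 2109 and 1279.5 CPM at the later stages, ratios of 0.193, 0.23 and 0.379. Gzmb was at 24.9 CPM against 169.7 at E18.5 and 207 at P0, and Ccl5 at 459.9 CPM against 1361, 1266 and 2395. Klre1, an NK receptor gene, had 5.96 CPM against 98, 68.6 and 246, and Klrb1c (NK1.1) 8.94 CPM against 81.7, 48.4 and 176. Of 23 NK receptor and adaptor genes, 4 were lower at E16.5 than at E18.5 and 1 was higher, 1 and 1 against P0, and 12 and 3 against the adult. Ncr1 stood at 11.9 CPM against 174 in the adult, and the inhibitory receptor gene Klra4 had 1 UMI at E16.5 against 194 CPM in the adult.

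Several ILC2 genes were higher at E16.5. Of 9 listed genes, 5 were higher than at E18.5, 4 than at P0 and 6 than in the adult, and none was lower at any stage. Icos stood at 391 CPM against 74.4, 106 and 32 CPM, and Arg1 at 237 CPM against 88, 96.8 and 20 CPM. Il13 had 74.8 CPM against 0.908 at E18.5, which was 1 UMI and put the ratio at 82.5 with an interval of 14.6 to 3273, and 24.2 at P0. The first E16.5 library, with 7.24 CPM of Il13, lay below P0. Il1rl1 was 3.06-fold higher than at E18.5 but level with P0, at a ratio of 1.19 (0.892 to 1.62).

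Shares of cells were read at matched depth. After thinning, NK receptor transcripts were found in 26 of 65 cells at E18.5 (40%, 28 to 52.9%), 19 of 68 at P0 (27.9%, 17.7 to 40.1%) and 69 of 108 in the adult (63.9%, 54.1 to 72.9%), beside 23.1% at E16.5. Cells with an NK receptor and no CD3 transcript were 7.53% of those at E16.5 (3.76% at 2000 UMIs), 10.8% for E18.5, 13.2% for P0 and 51.9% for adult T/NK (42 to 61.6%). The ILC2 set was found in 44.1% of cells at E16.5, 16.9% at E18.5 (8.76 to 28.3%), 23.5% at P0 and 1.85% in the adult. With 1 library a later stage, these shares describe the libraries and the stages were not tested.

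Cd163l1 and Igf2bp1 had lower levels after E16.5. Cd163l1 stood at 265 CPM at E16.5 against 34.5 and 29.6 CPM at E18.5 and P0, and had no UMI in the adult. Of 7 fetal genes 1 was higher than at E18.5 and 1 lower (Plac8), and 1 higher than at P0 and 2 lower (Plac8 and Hmga2). The higher one, Igf2bp1, a fetal RNA-binding protein gene, had 32.8 CPM against 8.17 and 2.69 CPM and none in the adult. Mast cell genes such as Cma1 and Tpsb2 led the ratios over every later stage, and without sub-cluster G Cma1 fell to 94.9 CPM against 4.54 CPM at E18.5. Against the adult, 9 of 16 ribosome biogenesis and 9 of 16 cell cycle genes were higher at E16.5, beside the 32.9% of all genes. The adult cells had a median of 3647 UMIs, and neutrophil transcripts such as S100a8, at 2107 CPM against 2.61 at E16.5, were among the 5 lowest ratios. The 5 neutrophil markers summed to 2765 CPM in the adult cells, and their part in the adult comparison was not tested. Fewer cells of a kind and less RNA per cell cannot be told apart in these summed levels.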

How the data were processed

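Transcripts and antibody tags were read in 5 HP libraries. According to the submitters' processing notes reads were processed with Cell Ranger 3.1.0 on mm10 and with R 4.0 and Seurat 3.1.5. The authors deposited raw UMI counts for 20275 genes, each found in at least 30 cells, and raw antibody counts per cell, for cells with at least 300 UMIs and under set limits for mitochondrial UMIs and for high gene and UMI numbers, which removed likely doublets. The authors deposited a table of cells with cluster codes, cell cycle phase, the mitochondrial share as a fraction from 0 to 1 and the hscScore, a score of likeness to stem cells that they computed from each cell's transcripts. Of the per-cell columns 7 were not used for any value. The 2 E16.5 libraries hold 13974733 and 95833532 UMIs, with medians of 23291.5 and 18831 per cell. Samples were grouped by the stage, sort and replicate number in the labels, and whether the libraries of E16.5 came from separate litters was not given.

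From the deposited counts, UMIs were summed per cluster and library and given as CPM, with exact 95% Poisson intervals, and shares with Clopper-Pearson intervals. Depth sets these intervals. Ratios carry exact conditional intervals, with 3 counts in place of 0. No test between clusters was run, because the clusters were made from these same counts, and none between stages, because each later stage is 1 library. The members and the 17 gene lists (223 genes, 8 of them absent from the matrix) and 10 lists of other cell types were chosen with earlier results of these data known. Named genes are those of the lists plus the 10 highest and 5 lowest CPM ratios of each cluster, and 5 each way for later stages, among genes with at least 100 CPM and 50 counts in the higher group, without mitochondrial and ribosomal protein genes. Genes that lead sub-clusters, and the cells followed one by one, were chosen after their values were seen. The ratio step was tested on simulated data for TCell5 and for TCell6 against TCell1 to TCell4: among 20275 genes 50 at each of 4-fold and 8-fold up and down were changed, and 50 of 50 were called in each. The simulated counts were Poisson draws with no spread between cells, changed in well counted genes. They check the computation and say nothing on ratios that rest on few cells.

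Cells were thinned at random to 1000 UMIs for shares of cells. Antibody counts were transformed with the CLR transform (a log ratio to the geometric mean), taken over all cells of a library for 1 antibody at a time. TCell5 was clustered with scanpy 1.11.5 and leidenalg 0.10.2 (2000 variable genes, 15 components, 15 neighbours, resolution 0.8), all E16.5 HP cells were clustered anew, and doublets were sought with scrublet. Alternatives were a 4-fold limit, 20 counts, TMM factors (edgeR 4.0.16 in R 4.3.3), denominators without mitochondrial and ribosomal protein genes, means over cells, other thinning and CLR levels, and leaving out each library. Leaving out sub-clusters F or G or shared barcodes, and a resolution of 0.4, were chosen after seeing the data. Other work used Python 3.11.15, numpy 2.4.6, scipy 1.17.1 and pandas 2.3.3.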

Additional observations from a re-analysis of the deposited data

How the results depend on the processing

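No paired analysis was possible because the values come from no test, the clusters having been made from these same counts. Of the values recomputed here, 84 stayed within their error or within 1.5 times their count and 49 moved. Only ratios of the 4 label markers over TCell1 to TCell4 could be scored as reversed. None was, but these markers came with the label, so this is no check. Among the shares of members positive for other antibodies or in the phMPP2 gate 6 stayed and 30 moved, all 30 with the CLR level. Leaving out each E16.5 library in turn put the members' share between 2.32% and 7.13%, and the CPM over all members between 10.3 and 18.1 for Klrc1, 119.9 and 355 for Klrd1, 30.03 and 54.3 for Il2rb and 43.4 and 82.3 for Xcl1, whose values over both libraries were 10.6, 128, 30.9 and 80.8. With the first library alone the ratios over TCell1 to TCell4, which then had no UMI of these genes, were bounds of at least 14.8 for Klrd1, 2.26 for Il2rb and 1.81 for Xcl1, and none could be given for Klrc1. With the second library alone these ratios were 386, 157 and 3442. For Klrc1, Klrd1, Il2rb and Xcl1 the CPM was 15.2, 184, 44.4 and 116 without mitochondrial and ribosomal protein genes in the denominator, 16, 199.98, 44.2 and 96.9 as a mean over cells, and 2.91, 51.8, 20.8 and 45.3 without sub-cluster F, where the Klrd1 ratio was 167 in place of 415. A 4-fold limit left 140 higher and 217 lower genes for both clusters (315 and 805 at 2-fold), 253 and 273 for TCell5 (604 and 923), 25 and 369 for TCell6 (91 and 1500), 45 and 24 against E18.5, 37 and 23 against P0 and 258 and 73 against the adult. With at least 20 counts there were 526 higher genes for both clusters, 1076 for TCell5 and 147 for TCell6, 545 higher and 409 lower against E18.5, 476 and 368 against P0, and 479 lower against the adult. TMM factors and leaving out sub-cluster G moved no count of genes by over 1.5 times. The CPM and ratios of the 4 markers stayed within their error without cells marked by scrublet and with recomputed clusters. Neither of these 2 is a check, because scrublet marked no member and the recomputed clusters, made from the same counts, held 330 of the 352 members. Without thinning 25% of members had an NK receptor UMI (12.8% at 1000 UMIs), 99.1% a CD3 UMI (73.9%, and 87.5% at 2000 UMIs) and 24.1% both (8.81%). CD90.2 was positive in 86.4% of members at a CLR of 0.75 and 71.7% at 1.5 (82% at 1), and the phLT-HSC gate held 0 of them at 1.5. At a resolution of 0.4 sub-clusters C and E merged and the others were the same cells. Depth limits statements on absence in single cells, and the 13 members limit those on the first library.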

Other observations

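Hlf, a transcription factor gene known from blood stem cells, was high in TCell5. Of the 6 genes of the stem and progenitor list it and Meis1 were higher than in TCell1 to TCell4 and Cd34 was lower, at 8.56 against 21.5 CPM. Hlf stood at 68.7 CPM in the first library and at 70 CPM in the second, against 0.219 CPM in TCell6, 0.693 CPM in TCell1 to TCell4 and none in Bcell1, and at 20, 35 and 10 CPM in the T-named cells of E18.5, P0 and the adult. Within TCell5 it stood at 143 and 146 CPM in sub-clusters A and B and below 50 CPM in the others. Cd52, a small surface glycoprotein of lymphocytes, separated TCell5 as well, at 1501 and 1219.9 CPM in the first and second library against 12.2 CPM in TCell6 and 42.1 CPM in TCell1 to TCell4.

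In the P0 comparison Ifi27l2a, an interferon-induced gene, was the lowest at E16.5, at 2.23 CPM against 147 CPM at P0, and it had 45.4 CPM at E18.5 and 48 CPM in the adult. Ifitm1, another gene of that response, had 1508 CPM in the second E16.5 library against 502 CPM at P0 but 141 CPM in the first, and most of it lay in sub-cluster F, where it stood at 9521 CPM. Dgkeos, an antisense transcript, had no UMI in TCell5 and 102 CPM in TCell6.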
